A study of Mus musculus with 9 samples.

Results

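Transforming growth factor beta (TGF-beta), bone morphogenetic protein (BMP) and activin signalling was described through 10 genes chosen by name: the ligands Tgfb1 and Inhba, the receptors Tgfbr1, Acvrl1, Tgfbr2 and Bmpr2, the co-receptor Eng and the intracellular Smad3, Smad6 and Smad7. All 10 were found among the 24312 genes of the expression table, each with 1 entry. Liver macrophages were sorted as Ly6C-low F4/80+ cells from wild-type (WT) male C57BL/6J mice, young adults when the diet began. The controls ate normal chow (ND). The others were fed CDA-HFD for 7 or 10 weeks, a high-fat diet without choline in which L-amino acids replace protein and which causes steatohepatitis with fibrosis. Each group held 3 bulk RNA-seq libraries, 9 in all, named ND 1 to 3, 7w 1 to 3 and 10w 1 to 3, and no group carried an engineered allele or a drug. The sort took resident Kupffer cells and monocyte-derived macrophages through the same gate, so their shares can differ between groups. By flow cytometry, the paper reports that monocyte-derived macrophages replaced the resident cells, which were barely detectable by the earlier time point used here. Its single-cell data likewise show resident Kupffer cells as the largest population in the steady state and rare on this diet. Differences between diets thus compare largely different cell populations, and the part of this shift in them was not tested.

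Ligands of this superfamily bind a pair of type II and type I receptor kinases, and the type I receptor phosphorylates receptor Smads that enter the nucleus with Smad4. TGF-beta and activin act mainly through Smad2 and Smad3, whereas BMPs act through Smad1, Smad5 and Smad9, and Smad6 and Smad7 inhibit both branches to differing extents. In the liver, TGF-beta drives stellate cells to make collagen and macrophages are one of its sources, while BMP receptors and Smads on Kupffer cells are part of the signals that keep these cells in their resident state.

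The estimated depth was 5405405 to 6269592 reads per library, and 10990 to 11273 genes reached 1 FPKM (fragments per kilobase of transcript scaled to the number of mapped reads). Of 15 Kupffer cell markers, 14 fell and 1 did not pass the test in CDA-HFD against ND, and their summed level was 3367 to 3542 FPKM in ND, 1563 to 1877 FPKM in 7w libraries and 1521 to 1814 FPKM in 10w libraries. Of 11 monocyte markers, 8 rose, 1 fell, 1 did not pass and 1 was not tested, and all 11 markers of lipid- and scar-associated macrophages rose. Of 8 pan-macrophage markers, 4 fell, 1 rose and 3 did not pass. Their summed level was 1698 to 1787 FPKM in ND, 1635 to 1661 FPKM in 7w libraries and 1531 to 1613 FPKM in 10w libraries. Of 15 tested hepatocyte markers 12 fell, 2 rose and 1 did not pass, with a summed level of 591 to 946 FPKM in ND and 432 to 541 FPKM on the diet. The summed platelet and megakaryocyte list was 99.5 to 110 FPKM in ND and 209 to 252 FPKM on the diet, nearly all of it from Pf4, while Itga2b and Gp9 were at or near 0 in most libraries. These lists move with every diet difference given here, and their part in those differences was not tested: in bulk samples, fewer cells of a type and less RNA per cell cannot be told apart.

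Promoter sequence was available in RefSeq (GRCm38.p6) for 8 of the 10 members. The 250 bases before the transcription start are shown for the TGF-beta receptor genes that moved in opposite directions, Tgfbr1 (chr4:47352972-47353221, plus strand) and Tgfbr2 (chr9:116175364-116175613, minus strand), for the co-receptor gene Eng (chr2:32646345-32646594, plus strand), and for the ligand gene Tgfb1 (chr7:25686752-25687001, plus strand). Sequences run 5′ to 3′ towards the start, and capitals mark a match to one of the motifs searched on both strands.
Tgfbr1: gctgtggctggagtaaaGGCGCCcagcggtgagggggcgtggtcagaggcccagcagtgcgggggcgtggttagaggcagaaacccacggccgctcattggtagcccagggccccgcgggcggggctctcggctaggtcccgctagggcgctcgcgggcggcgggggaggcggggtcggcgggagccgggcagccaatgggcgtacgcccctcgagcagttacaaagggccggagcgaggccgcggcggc
Tgfbr2: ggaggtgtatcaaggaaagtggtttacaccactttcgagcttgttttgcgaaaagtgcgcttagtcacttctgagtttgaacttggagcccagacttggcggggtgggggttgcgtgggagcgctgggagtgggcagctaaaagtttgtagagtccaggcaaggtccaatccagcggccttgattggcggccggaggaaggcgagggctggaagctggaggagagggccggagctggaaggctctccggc
Eng: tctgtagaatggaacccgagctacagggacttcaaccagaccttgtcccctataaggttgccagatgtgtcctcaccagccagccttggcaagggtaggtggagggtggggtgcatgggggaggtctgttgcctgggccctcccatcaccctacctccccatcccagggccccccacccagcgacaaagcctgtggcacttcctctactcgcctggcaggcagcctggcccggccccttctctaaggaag
Tgfb1: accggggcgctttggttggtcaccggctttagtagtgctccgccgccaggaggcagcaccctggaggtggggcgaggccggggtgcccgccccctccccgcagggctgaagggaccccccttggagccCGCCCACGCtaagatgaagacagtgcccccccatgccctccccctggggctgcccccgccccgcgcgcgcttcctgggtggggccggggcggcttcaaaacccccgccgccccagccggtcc
The Smad-related letters GGCGCC were in the windows of Tgfbr1, 233 bases before the start, and of Bmpr2, and in 9.59% of 32851 RefSeq windows of this length. The Egr letters GCGTGGGCG were found among members only before Tgfb1, on the opposite strand 122 bases before the start, and in 0.536% of all windows. A second Smad-related motif, CAGACA, in 17.1% of all windows, was found only before a second, downstream start of Tgfbr1. The AP-1 letters TGANTCA (6.75% of all windows) and the Smad palindrome GTCTAGAC (0.167%) matched no member's window. A match describes letters and is not a measured site.

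On CDA-HFD the TGF-beta type I receptor gene rose, while the gene of the type II receptor with which it pairs fell. In CDA-HFD against ND (6 libraries against 3), Tgfbr1 and Eng rose, Tgfbr2, Acvrl1 and Smad7 fell, and Tgfb1, Bmpr2, Smad3 and Smad6 did not pass the test. Calls were made with limma at a Benjamini-Hochberg adjusted p below 0.05. These 5 calls among 9 tested members (55.6%) stand beside 47.0% of all 11783 genes tested, so the share of members called was close to the background. Higher calls made up 22.8% of all genes and lower calls 24.3%. The median log2 fold change was 0.08 over the 9 tested members and −0.03 over all tested genes. Inhba did not reach 1 FPKM in the 3 libraries that the filter requires and was not tested.

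**Figure D1:**
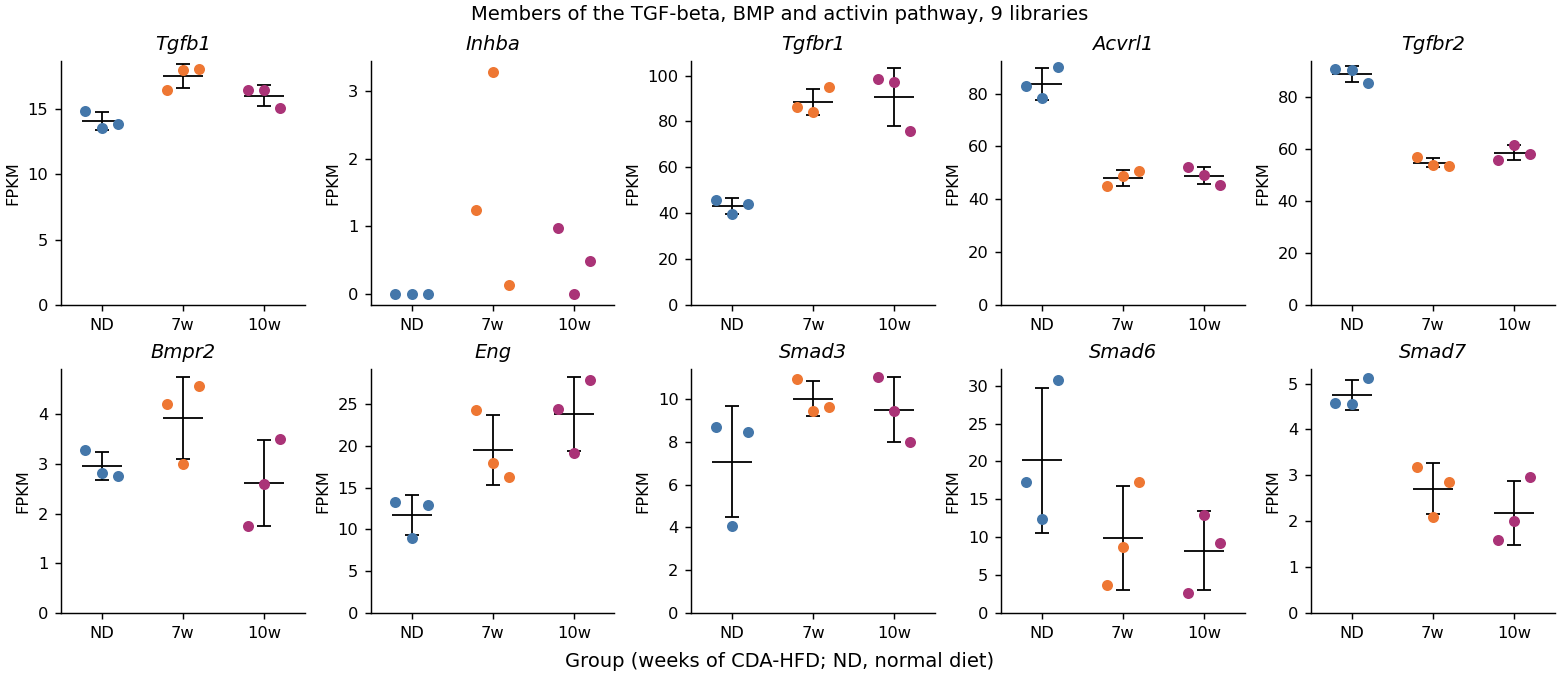
FPKM of the 10 members in each of the 9 libraries, by group (ND, 7 or 10 weeks of CDA-HFD). Points are libraries, and horizontal bars with whiskers are the mean ± SD of 3 libraries, left out for Inhba because values are listed at 0. Tgfbr1 and Eng were higher, and Tgfbr2, Acvrl1 and Smad7 lower, in all 6 CDA-HFD libraries than in any ND library.

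Ligands were considered first. Tgfb1 encodes TGF-beta 1, which macrophages secrete in latent form. Tgfb1 (chromosome 7, 25687002 to 25705077, GRCm38) was at 14.8, 13.5 and 13.8 FPKM in ND, 16.5, 18.0 and 18.0 at 7 weeks and 16.4, 16.4 and 15.1 at 10 weeks. All 6 CDA-HFD libraries lay above all ND libraries, yet by a small margin: group means were 14.1 ± 0.684, 17.5 ± 0.894 and 16.0 ± 0.784 FPKM (SD, n = 3). The log2 fold change of 0.24 (SE 0.12) did not pass (limma, adjusted p = 0.133), whereas it passed with quantile normalization (0.044) and without the trend and robust options of limma (0.022). In 10w against 7w, Tgfb1 was lower in every library, without passing the test (log2 fold change −0.12, limma adjusted p = 0.725).

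Inhba encodes the beta A subunit of activin A. It was listed at 0 in all 3 ND libraries, at 1.24, 3.28 and 0.133 FPKM at 7 weeks, and at 0.972, 0 and 0.491 FPKM at 10 weeks. The highest value was that of 7w 2, and 10w 2 was listed at 0 like the ND libraries. No fold is given against a group listed at 0. Without the filter on low values the difference between diets was 0.83 on the log2(FPKM + 1) scale (SE 0.37, limma adjusted p = 0.12). The remaining activin and inhibin subunit genes Inha, Inhbb, Inhbc and Inhbe did not pass the filter either.

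Among the 33 ligand genes of the superfamily, 7 were tested, 2 rose, 1 fell and 4 did not pass, and 10 were listed at 0 in every library. Gdf15, a stress-induced member that signals outside the classical receptors, was at 10.2, 6.54 and 12.4 FPKM in ND and between 141 and 218 FPKM in the CDA-HFD libraries (log2 fold change 4.08, SE 0.17). Gdf3, which acts on nodal and BMP signalling in embryos, went from 4.70 to 8.41 FPKM in ND to 63.6 to 88.3 FPKM on the diet (3.46, SE 0.14). Lefty1, an inhibitor of nodal, was at 17.1, 17.3 and 15.1 FPKM in ND, and fell to between 0 and 4.52 FPKM (−2.66, SE 0.45, limma adjusted p = 0.000468). Groups did not overlap for any of these 3 genes. Tgfb3 was at 12.3, 11.9 and 3.56 FPKM in ND against 1.43 to 5.55 FPKM on the diet, and missed the threshold over both times (−0.93, limma adjusted p = 0.056). At 10 weeks against ND Tgfb3 was called lower (−1.20, SE 0.43, limma adjusted p = 0.0411), although the groups overlapped. Bmp2 did not pass either, with 2.57 to 6.79 FPKM in ND and 2.02 to 9.89 FPKM on the diet.

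Type I receptors came next. Tgfbr1, also called ALK5, is the type I receptor for TGF-beta and passes the signal to Smad2 and Smad3. Tgfbr1 (chromosome 4, 47353222 to 47414931, plus strand) was at 45.9, 39.5 and 44.2 FPKM in ND, 86.4, 83.9 and 94.8 at 7 weeks and 98.3, 97.2 and 75.9 at 10 weeks. The groups on the 2 diets did not overlap, and the lowest CDA-HFD library, 10w 3, was still well above the highest ND library. It rose 2.04-fold (log2 fold change 1.03, SE 0.09, limma adjusted p = 1.36e-06), the only member called with a change of at least 2-fold, as were 16.5% of all tested genes.

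Acvrl1 (ALK1) is a type I receptor for BMP9 and BMP10 that acts through Smad1 and Smad5 and is best known from endothelial cells. Acvrl1 (chromosome 15, 101128522 to 101145336, plus strand) was at 82.7, 78.2 and 90.0 FPKM in ND, 44.9, 48.7 and 50.5 at 7 weeks and 52.0, 49.2 and 45.5 at 10 weeks. Every CDA-HFD library lay below every ND library, with little spread within a group. The log2 fold change was −0.77 (SE 0.07, limma adjusted p = 2.95e-06), a level 1.71-fold lower on the diet.

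Bmpr1a (ALK3), a type I receptor for BMP2 and BMP4, fell to or near 0. It was at 4.15, 5.42 and 6.61 FPKM in ND, 0.0345, 0 and 0.10 FPKM at 7 weeks and listed at 0 in all 3 libraries at 10 weeks. No value on the diet came near the ND range. The difference on the log2(FPKM + 1) scale was −2.63 (SE 0.25, limma adjusted p = 4.35e-06). Acvr1 and Acvr1b did not pass (log2 fold changes 0.05 and −0.11), and Bmpr1b and Acvr1c were listed at 0 in every library. Of 7 type I receptor genes 5 were thus tested, 1 rose, 2 fell and 2 did not pass.

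Among type II receptors, Tgfbr2 binds TGF-beta first and recruits Tgfbr1. Tgfbr2 (chromosome 9, 116084293 to 116175360, minus strand) was at 90.5, 90.4 and 85.2 FPKM in ND, 56.6, 53.9 and 53.5 at 7 weeks and 55.8, 61.6 and 58.1 at 10 weeks. The groups on the 2 diets did not overlap. Tgfbr2 fell by 0.64 on the log2 scale (SE 0.06, limma adjusted p = 2.04e-06), a level 1.56-fold lower on the diet. Bmpr2, the type II receptor for BMPs, was low throughout, at 3.28, 2.83 and 2.75 FPKM in ND, 4.21, 2.99 and 4.57 at 7 weeks and 1.76, 2.59 and 3.50 at 10 weeks. Its ranges overlapped and its log2 fold change was 0.08 (95% interval −0.45 to 0.60, limma adjusted p = 0.823). Acvr2a and Acvr2b, the activin type II receptors, did not pass, with values between 0.435 and 4.26 FPKM.

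The order of the receptors changed with these differences. With ND the mean levels per length were highest for Tgfbr2 (88.7 FPKM) and Acvrl1 (83.6 FPKM), whose ranges overlapped, and Tgfbr1 followed at 43.2 FPKM. At 7 weeks Tgfbr1 stood first with 88.4 FPKM, followed by Tgfbr2 with 54.7 and Acvrl1 with 48.1 FPKM, and their ranges were apart. The order at 10 weeks was the same, with 90.5, 58.5 and 48.9 FPKM, and again the ranges were apart. Within a library, the ratio of Tgfbr1 to Acvrl1 was 0.491 to 0.555 in ND, 1.72 to 1.92 in 7w libraries and 1.67 to 1.98 in 10w libraries. The ratio of Tgfbr1 to Tgfbr2 was 0.436 to 0.518, 1.53 to 1.77 and 1.31 to 1.76 in the same groups. A ratio within a library does not depend on how libraries are scaled. Both ratios were below 1 in every ND library and above 1 in every CDA-HFD library, and they are given as a description with no test.

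**Figure D2:**
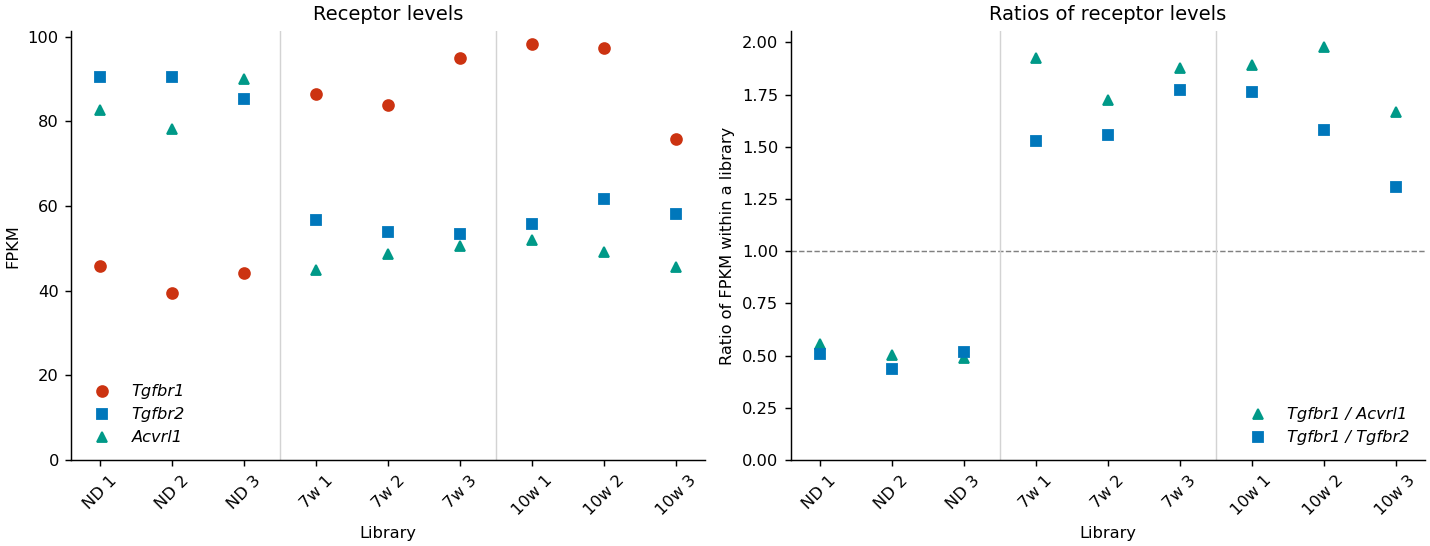
Left, FPKM of Tgfbr1, Tgfbr2 and Acvrl1 in each library. Right, the ratio of Tgfbr1 to Acvrl1 and to Tgfbr2 within each library, with a dashed line at 1, which every ND library lay below and every CDA-HFD library above.

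Eng encodes endoglin, a co-receptor that binds TGF-beta and BMP9 with the receptors above and is used as an endothelial and macrophage marker. Eng (chromosome 2, 32646595 to 32682669, plus strand) was at 13.3, 8.92 and 12.9 FPKM in ND, 24.3, 17.9 and 16.3 at 7 weeks and 24.4, 19.1 and 27.8 at 10 weeks. The groups on the 2 diets did not overlap. It rose 1.77-fold (log2 fold change 0.83, SE 0.18, limma adjusted p = 0.0024). Exons of Eng overlap exons of Fpgs on the other strand, and nothing states that the counting used strand. Fpgs was at 9.35 to 22.1 FPKM in ND and 12.4 to 19.6 FPKM on the diet, with a log2 fold change of 0.03.

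Endothelial genes moved with Eng, some up and some down. Of 28 liver endothelial markers, 8 rose, 3 fell, 12 did not pass and 5 were not tested. Clec4g, a lectin of sinusoidal endothelium, was at 13.7, 24.2 and 28.1 FPKM in ND, 77, 35.6 and 61.0 at 7 weeks and 45.4, 34.2 and 90.1 at 10 weeks. It was highest in 10w 3, where Eng was also highest, and then in 7w 1. The match did not hold throughout: 7w 3, with Clec4g at 61.0 FPKM, had the lowest Eng on the diet (16.3 FPKM). Among the 23 tested markers, Pearson's r with Eng over 9 libraries, on log2(FPKM + 1), ran from 0.90 (Cldn5) to −0.76 (Pecam1). Only Pecam1, Dnase1l3 and Stab2 had a negative r. All other tested markers had a positive r, the lowest being 0.08 (Lyve1). Stab2, an endothelial scavenger receptor, was at 53.6, 49.5 and 49.0 FPKM in ND and at 3.56 to 14.1 FPKM on the diet, and Pecam1 and Dnase1l3 fell with it. The summed list was 245 to 276 FPKM in ND, 179 to 301 FPKM in 7w libraries and 167 to 347 FPKM in 10w libraries. The endothelial transcription factor genes Erg and Sox17 were at or near 0, with highest values of 0.969 and 0.949 FPKM. Sox18 and Gata4, transcription factor genes of the same list, passed the filter. Their means were 2.19 and 1.24 FPKM at 7 weeks and 1.99 and 1.88 FPKM at 10 weeks, given for the diet groups only and not as a difference from ND. Acvrl1, the other gene of this group best known from endothelial cells, moved opposite to Eng. The part of endothelial RNA in these results was not tested.

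**Figure D3:**
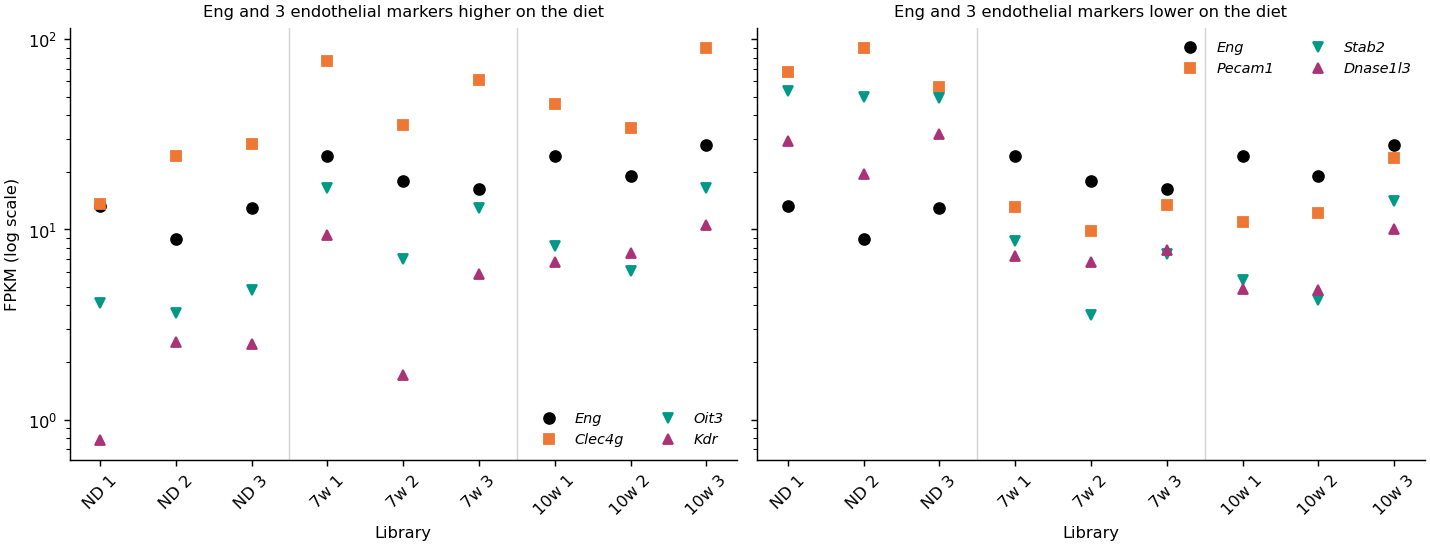
FPKM on a log axis in each library for Eng with the endothelial markers Clec4g, Oit3 and Kdr, which rose (left), and with Pecam1, Stab2 and Dnase1l3, which fell (right). Eng was highest in 10w 3 (27.8 FPKM), the library with the highest Clec4g (90.1 FPKM). Pearson's r with Eng over 9 libraries was 0.76 for Clec4g, 0.81 for Oit3 and 0.74 for Kdr. It was −0.76 for Pecam1, −0.68 for Stab2 and −0.70 for Dnase1l3, the only tested endothelial markers with a negative r.

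Among the other co-receptors, 1 fell and a pseudoreceptor rose. Rgmb, a co-receptor for BMPs, was at 19.6, 19.3 and 22.9 FPKM in ND and fell to 1.57, 5.59 and 9.05 FPKM at 7 weeks and to 1.39, 8.45 and 3.35 FPKM at 10 weeks. Groups did not overlap, and the lowest values were those of 10w 1 and 7w 1 (log2 fold change −2.09, SE 0.47, limma adjusted p = 0.0043). Bambi, a pseudoreceptor without a kinase domain that dampens TGF-beta and BMP signals, was at 3.30, 3.13 and 5.02 FPKM in ND and at 18.4 to 23.9 FPKM in the 6 CDA-HFD libraries (2.16, SE 0.17, limma adjusted p = 6.79e-07). Tgfbr3, or betaglycan, was at 0, 0 and 0.562 FPKM in ND, 0.280, 0.0595 and 1.38 FPKM at 7 weeks and 1.98, 0.958 and 2.62 FPKM at 10 weeks. It did not pass over both times (log2 fold change 0.80, limma adjusted p = 0.0762) but rose at 10 weeks against ND (1.25, SE 0.40, 0.0256), where groups did not overlap; the difference between the times did not pass (limma adjusted p = 0.305).

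Of the receptor and common Smads, Smad1 was the only tested gene called in CDA-HFD against ND. Smad3, which carries the TGF-beta and activin signal, was at 8.69, 4.09 and 8.45 FPKM in ND, 10.9, 9.44 and 9.65 at 7 weeks and 11, 9.45 and 8.0 at 10 weeks. ND 2 was far below the other ND libraries and 10w 3 overlapped ND, and Smad3 did not pass (log2 fold change 0.47, SE 0.22, limma adjusted p = 0.109). Without ND 2 its log2 fold change was 0.16 (limma adjusted p = 0.546). Smad1, which carries the BMP signal and had the highest mean of this list, fell from 71.9, 77.4 and 71.7 FPKM in the ND libraries to 41.4, 44.9 and 50.8 at 7 weeks and 43.9, 47.7 and 45.9 at 10 weeks (−0.68, SE 0.08, limma adjusted p = 1.41e-05). Smad2, Smad4 and Smad5 did not pass, so 1 of 5 tested genes of this list fell and none rose. The ratio of Smad1 to the sum of Smad2 and Smad3 was 3.31 to 5.23 in ND, 1.85 to 2.19 in 7w libraries and 1.71 to 2.24 in 10w libraries, with no overlap between diets.

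Inhibitory Smads were lower on the diet, 1 of them past the test. Smad7, which blocks type I receptors and is itself induced by TGF-beta, was at 4.57, 4.55 and 5.13 FPKM in ND, 3.18, 2.1 and 2.86 at 7 weeks and 1.60, 2.00 and 2.96 at 10 weeks. All 6 CDA-HFD libraries lay below all ND libraries, and Smad7 fell by 0.76 on the log2 scale (SE 0.23, limma adjusted p = 0.0185). This call was lost without ND 1 (0.0533), ND 2 (0.0508) or ND 3 (0.0728), and Smad7 was not among the genes tested with a filter of 5 FPKM. Smad6, which favours the BMP branch as its target, was at 17.3, 12.4 and 30.8 FPKM in ND, 3.68, 8.75 and 17.3 at 7 weeks and 2.68, 12.9 and 9.18 at 10 weeks. Its libraries spread more than those of any other tested member: 7w 1 and 10w 1 were lowest, as for Rgmb, while 7w 3 was level with ND 1. Smad6 did not pass (log2 fold change −1.19, SE 0.54, limma adjusted p = 0.106), but passed without 7w 3 (0.04).

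Single members were also compared with an exact permutation test, two-sided over the 84 ways to split 9 libraries into 6 and 3, in 10 tests. Tgfb1, Tgfbr1, Tgfbr2, Acvrl1, Eng and Smad7 each gave an exact p of 0.0119, the smallest this design allows, and these are the 6 tested members whose diets did not overlap. Such separation was seen for 40.6% of all tested genes. Smad3 gave an exact p of 0.0357, Smad6 and Inhba 0.0952, and Bmpr2 0.774. Tgfb1 and Smad3 thus passed this test of 1 gene at a time and not limma's test with adjustment over all genes, and the Smad3 difference rests on the low value of ND 2. With 1 library left out, 6 or 7 of the 10 members had an exact p below 0.05.

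The time points were then considered. At 7 weeks against ND, 4 of the 9 tested members were called (43.7% of all tested genes): Tgfbr1 and Eng rose and Tgfbr2 and Acvrl1 fell. At 10 weeks against ND, 5 were called (39.9% of all tested genes), the same 4 and Smad7. Both comparisons used the same ND libraries. Tgfbr1 rose by a log2 fold change of 1.02 at 7 weeks and 1.04 at 10 weeks (SE 0.10 each), and Eng by 0.69 and 0.97 (SE 0.21 each). Acvrl1 fell by 0.79 and by 0.76 on the log2 scale (SE 0.08 each), and Tgfbr2 fell by 0.69 and by 0.59 (SE 0.07 each). The call of Eng at 7 weeks was lost without ND 2 (limma adjusted p = 0.0722) or without 7w 1 (0.0837). Smad7 missed the threshold at 7 weeks (−0.64, limma adjusted p = 0.0733) and passed at 10 weeks (−0.87, 0.0222), where the call was lost without any 1 of ND 1, ND 2, ND 3, 10w 1 and 10w 2 (0.0523 to 0.0716).

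In 10w against 7w, 0 of 9 members were called by limma, and 0 had an unadjusted p under 0.05, beside 0.127% of all genes called. The largest difference among members was that of Bmpr2 (log2 fold change −0.46, 95% interval −1.07 to 0.15). For Tgfbr1 the interval was −0.19 to 0.24, for Acvrl1 −0.16 to 0.20 and for Tgfbr2 −0.05 to 0.24, so changes of these receptors between the time points larger than these bounds lie outside the intervals. Of the 69 tested genes of the pathway lists 0 were called by limma in this comparison, and 10 had an unadjusted p under 0.05. The share of all genes with an unadjusted p under 0.05 is not given, so the unadjusted counts cannot be set against it.

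**Figure D4:**
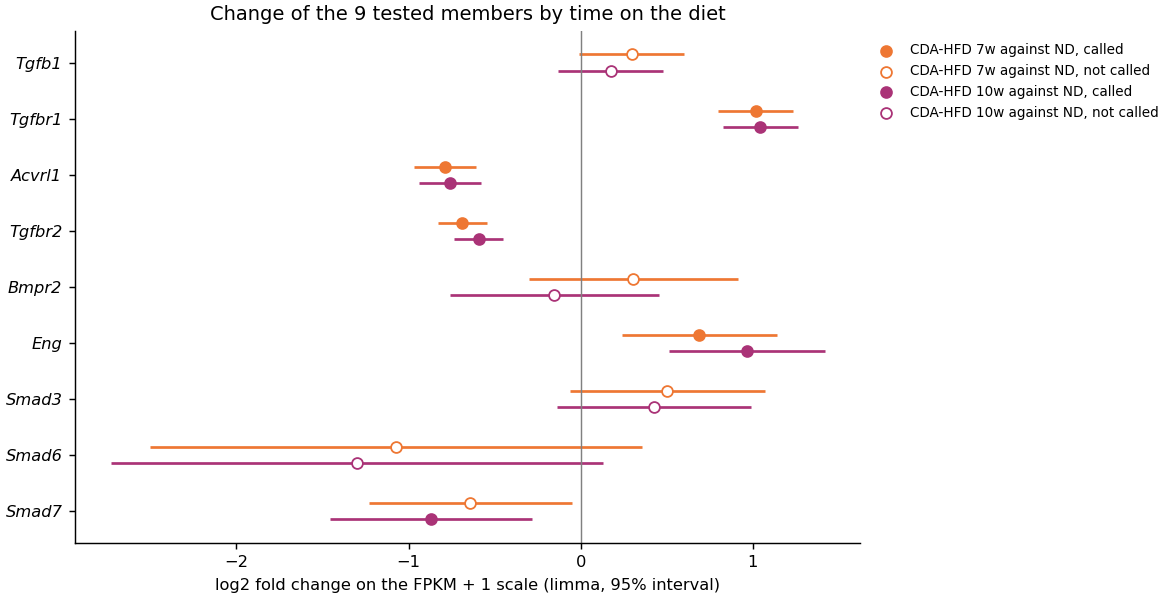
Log2 fold changes of the 9 tested members at 7 and 10 weeks of CDA-HFD against ND on the FPKM + 1 scale, with 95% intervals from limma; filled points were called at an adjusted p below 0.05. Tgfbr1 lay near 1 at both times, Acvrl1 and Tgfbr2 lay below 0, and Smad7 was called at 10 weeks only, a difference between times that did not pass its own test (10w against 7w).

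The wider pathway was read from 11 lists with 127 genes, chosen by role. Of these, 69 were tested, 23 rose, 11 fell and 35 did not pass in CDA-HFD against ND, and the 49.3% called stood near the 47.0% of all genes. Their median log2 fold change was 0.19 (−0.03 over all tested genes). Leaving out 1 library at a time gave 28 to 38 calls.

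Most tested genes that store and activate latent TGF-beta rose: of 10 tested, 6 rose, 1 fell and 3 did not pass, with a median of 1.21. Ltbp3, a latent TGF-beta binding protein, was at 0.240, 0.40 and 0.332 FPKM in ND and at 3.52 to 13.2 FPKM on the diet (log2 fold change 2.65, SE 0.32). Lrrc32 (GARP), which holds latent TGF-beta on the cell surface, was at 0.235, 0 and 2.78 FPKM in ND and at 3.20 to 12.1 FPKM on the diet, and it rose (limma adjusted p = 0.000348). Its log2 fold change depends on the ND value of 2.78 FPKM and on the pseudocount: it was 2.82 without ND 3, 3.90 with a pseudocount of 0.1 and 1.04 with a pseudocount of 5. Plau, the urokinase that activates plasmin, rose from 0.714 to 1.85 FPKM in ND to 4.48 to 16.0 FPKM (2.02, SE 0.31). Thbs1, which can activate latent TGF-beta, rose by 4.91 on the log2 scale and is also on the monocyte list, and the protease gene Mmp14 rose by 2.57. Nrros, which anchors latent TGF-beta on macrophages, was at 112 to 121 FPKM in ND, 95.1 to 99.8 FPKM at 7 weeks and 110 to 112 FPKM in the 10w libraries. It fell over both times (−0.17, SE 0.04) and at 7 weeks (−0.26, limma adjusted p = 0.00062), but was not called at 10 weeks (−0.08, 0.169). Every 10w library lay above every 7w library, a difference of 0.18 that did not pass (limma adjusted p = 0.117). Ctsd, the most abundant gene of this list, did not pass, and its 299 to 339 FPKM lay close to an estimated upper limit of the measurement of 319 to 370 FPKM.

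**Figure D5:**
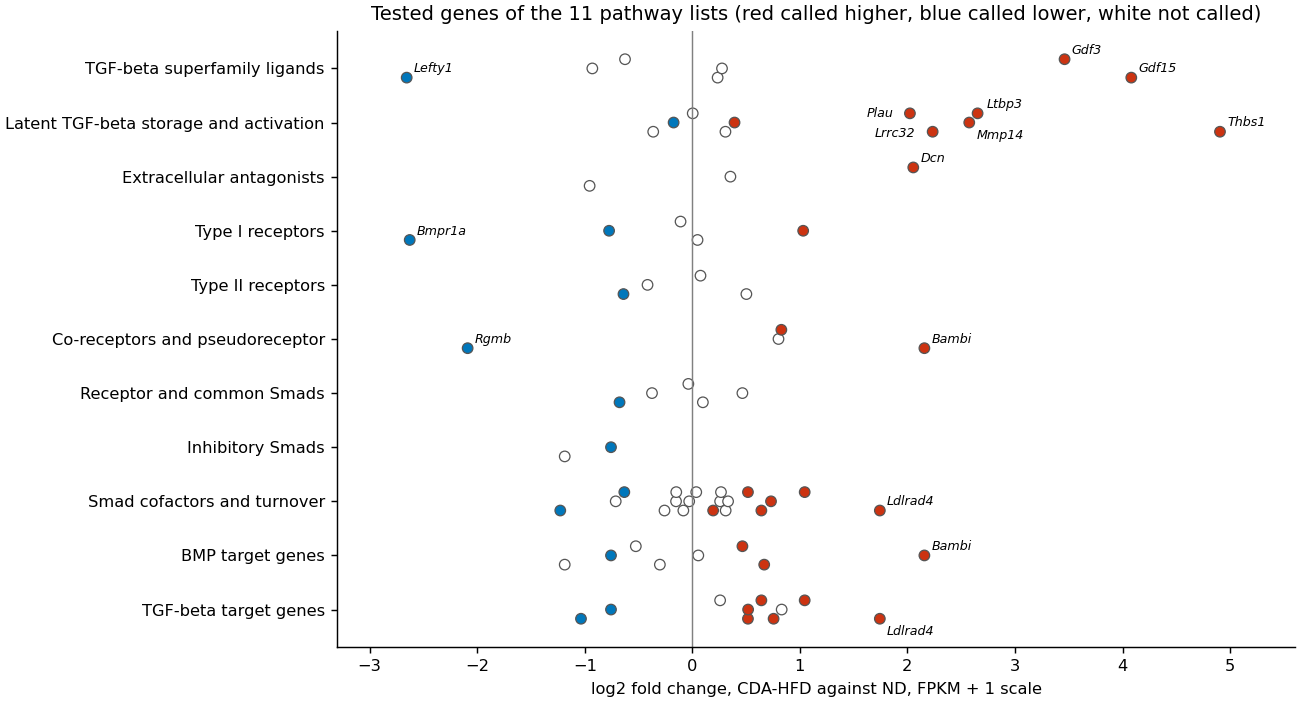
Log2 fold change in CDA-HFD against ND for tested genes of the 11 pathway lists, with 1 row per list and 1 point per gene. Red genes were called higher, blue genes lower and white genes not called; the called genes with a log2 fold change beyond 1.5 in size are named, and a gene on 2 lists appears in both.

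Extracellular antagonists were mostly undetected. Of 14 genes 8, among them Nog, Grem1 and Fst, were listed at 0 in all libraries, and of 3 tested genes 1 rose. This was Dcn, which encodes decorin, a matrix proteoglycan that binds TGF-beta, at 0.961, 1.82 and 3.80 FPKM in ND and 7.36 to 16.6 FPKM on the diet (log2 fold change 2.05, SE 0.31). Dcn is also on the list of stellate cell and fibroblast markers. Of the 8 tested genes of that list 5 rose, 2 fell and 1 did not pass. At least 2-fold changes were called for 4 that rose and 1 that fell. The summed level of that list was 156 to 161 FPKM in ND, 143 to 170 FPKM in 7w libraries and 117 to 148 FPKM in 10w libraries, most of it from Ecm1. The fibroblast and stellate cell genes Col1a1 and Lrat were near 0, at most 0.891 and 0.752 FPKM. Tagln, Acta2, Lum and Col3a1 of the same list passed the filter. Their means were 8.55, 4.66, 2.46 and 1.56 FPKM at 7 weeks and 4.91, 3.51, 2.11 and 1.28 FPKM at 10 weeks. These means are of the diet groups only, so they give no difference from ND. The part of such cells in the Dcn values was not tested.

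Smad cofactors and turnover genes numbered 20, of which 19 were tested, 6 rose, 2 fell and 11 did not pass. Tgif1, a Smad corepressor and the most abundant of them, was at 91.3, 79.6 and 117 FPKM in ND and 144 to 164 FPKM on the diet (log2 fold change 0.64, SE 0.10). Pmepa1 and Ldlrad4, TGF-beta-induced proteins that restrain Smad signalling, rose by 1.04 and 1.74 on the log2 scale (SE 0.27 each). Pmepa1 was low, with a mean of 1.62 FPKM over all libraries. Over the alternatives that kept all libraries, its log2 fold change ran from 0.38 to 1.85, and that of Ldlrad4 from 1.07 to 2.08. Smurf1, a ubiquitin ligase for Smads and receptors, was at 9.64, 7.48 and 10.6 FPKM in ND and fell to between 2.13 and 5.69 FPKM (−1.23, SE 0.26, limma adjusted p = 0.0022).

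Of 11 tested TGF-beta target genes 7 rose, 2 fell and 2 did not pass, with a median of 0.64. Junb, the most abundant gene of this list, rose from 129, 151 and 173 FPKM in ND to between 245 and 266 FPKM (0.76, SE 0.07). Its exons overlap those of Prdx2 on the other strand. The levels on the diet approach the estimated upper limit of 319 to 370 FPKM. Over the alternatives that kept all libraries, the log2 fold change of Junb ran from 0.73 to 1.24. Smad7 and the cell cycle inhibitor gene Cdkn2b, both TGF-beta targets, fell. The call of Cdkn2b (−1.04, limma adjusted p = 0.029) was lost without ND 2 (0.103), ND 3 (0.0969) or 10w 2 (0.0557), and with a pseudocount of 0.1 (0.0982). Genes of the immediate early and dissociation response, a list that holds Junb too, rose together with these targets, 15 of 20 being called higher and 1 lower, with a summed level of 1282 to 1689 FPKM in ND and 2440 to 2660 FPKM on the diet. The part of that response in the target genes was not tested.

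BMP target genes gave 3 that rose, 1 that fell and 4 that did not pass among 8 tested, with a median of −0.12. Id1 and Id2, inhibitors of helix-loop-helix factors, rose by 0.67 and 0.47 on the log2 scale (SE 0.18 and 0.03), and the pseudoreceptor gene Bambi was the third. Id3, also on the Kupffer cell list, was at 245, 261 and 293 FPKM in ND and 265 to 292 FPKM on the diet and did not pass. These levels, and those of Id2 on the diet, approach the estimated upper limit of 319 to 370 FPKM. Near that limit, the lack of a call for Id3 is not read as an unchanged level. Over the alternatives that kept all libraries, the log2 fold change of Id3 ran from 0.05 to 0.20 (lowest limma adjusted p = 0.0918). Id3 passed without ND 3 (0.13, limma adjusted p = 0.0242).

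The genes most like 2 of the members across the 9 libraries were sought among 9037 tested genes with a mean of at least 5 FPKM, by Pearson's r on log2(FPKM + 1). Since ND and CDA-HFD libraries formed separate clusters for Tgfbr1, a high r there mostly restates the difference between diets. For Tgfbr1, the member with the largest rise, these were Fam107b (r = 0.996), Asph (0.992), Cd276 (0.990), Tlr2 (0.989) and Srebf2 (0.989). For Smad6, the member with the largest fall in fitted value, they were Srsf9 (0.982), Lmo2 (0.978), Suds3 (0.966), Pptc7 (0.965) and Mcmbp (0.962). These are the highest of many values over 9 libraries and are given as a description.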

How the data were processed

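Bulk RNA-seq of 9 sorted liver macrophage samples was used, 3 per group, grouped by the sample labels, which call the replicates biological. The authors prepared cDNA from TRIzol-extracted RNA and Nextera XT libraries, and their processing notes name Trimmomatic (0.36.0), HISAT2 (2.2.1) and featureCounts (2.0.1) with GRCm38 (mm10). The table deposited by the authors holds FPKM, with 1 column per library and genes named by symbol. The columns of the control group are headed as naive macrophages and were taken as ND, the labels' only untreated group. The study's methods mention duplicate removal and TPM, but column totals differed between libraries (444816 to 458788), so the values were treated as FPKM. Duplicate removal of single-end reads would limit FPKM to about 319 to 370, above all member values. This limit is approximate: the mean of Lyz2 at 7 weeks was 368.5 FPKM, above the 368, 355 and 353 FPKM estimated for those libraries. Depth was estimated from steps in low values, and is approximate: 66.4% to 74.0% of them were whole to within 0.1 read.

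Of 24776 entries, 1 incomplete entry was left out, and values were summed per symbol. Genes that reached 1 FPKM in 3 or more libraries were fitted with limma (3.58.1, R 4.3.3; trend and robust) on log2(FPKM + 1), 3 group means without covariates, with p adjusted over all 11783 genes. Fold changes are on that scale and come out too small for genes with low values. The fit was tested on simulated data. All 10 members are named, with the pathway genes called at 2-fold or more, the most abundant gene of each list, and the 5 genes most like 2 members. A gene that the rule names is not reported here, though it enters the counts of its list, and it is left out of the plot of the lists. Tgfb3, Bmp2, Id1, Id2, Nrros, Tgfbr3 and other genes outside this rule were named after their values were seen. Members and lists were chosen with earlier results of these data known. Positions are GENCODE vM21 (GRCm38). Alternatives changed the pseudocount, filter, scaling, limma options, handling of duplicate symbols, upper limit, block, libraries left out and the groups in the fit.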

Additional observations from a re-analysis of the deposited data

How the results depend on the processing

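The counts of called members and pathway genes kept within 1.5 times their main values under every alternative run. In CDA-HFD against ND, 4 to 6 members were called, at 7 weeks 3 to 6, at 10 weeks 4 to 6, and in 10w against 7w 0. Tgfbr1, Tgfbr2 and Acvrl1 kept their direction and call against ND under every alternative. Signs turned only for differences that were not called. With 1 library left out, Bmpr2 ranged from −0.010 to 0.17 in CDA-HFD against ND and from −0.33 to 0.027 at 10 weeks against ND, and Id3 from −0.0021 to 0.13. In 10w against 7w, the range was −0.039 to 0.15 for Tgfbr1, −0.022 to 0.075 for Acvrl1, −0.18 to 0.029 for Smad3 and −0.73 to 0.34 for Smad6. Ctsd ranged from −0.021 to 0.017, was −0.042 with quantile normalization, and passed with the upper limit corrected (0.18, limma adjusted p = 0.0042). Smad7 at 7 weeks passed with a pseudocount of 5 (0.0478) and without trend and robust (0.0218), and Tgfb1 at 7 weeks with quantile normalization (0.033) and without trend and robust (0.0174). The cause was not tested.

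Over all tested genes, deviations from the group mean in same-numbered libraries correlated at −0.062 to 0.092. A correlation over all genes cannot show whether the replicate number pairs the samples for single genes. With the replicate number as a block, Smad6 passed in CDA-HFD against ND (−1.19, limma adjusted p = 0.0149), at 7 weeks (0.0458) and at 10 weeks (0.0225), and no other call of a member or named gene changed. With an estimated 5405405 to 6269592 reads per library, 1 read stood for 0.160 to 0.185 FPKM per kilobase, so Inhba, Bmpr2, Smad7 and Bmpr1a rest on few reads.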
